A study of Mus musculus with 6 samples.

Results

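Rapamycin was compared with no treatment in 2 mouse kidney cell lines that the labels call Tsc2-null, MKOC and TJ, and the genes that changed alike in both lines were sought. The members were the well-expressed genes, those with a summed level of at least 10 TPM, the share of a library's transcripts after correction for their length, in at least 1 of the 4 kidney libraries. There were 9029 such genes among 30281 gene symbols, of which 9018 had enough counts to be tested and 11 did not. The members just inside the limit were Tmem218 at 10 TPM and Zhx1 at 10.01 TPM in their highest library, and those just outside were Zfp760 at 9.999 TPM and Lfng at 9.996 TPM. Because the limit had to be met in 1 library only, 476 members reached it only with rapamycin and 229 only without it, while 7851 reached it in all 4 libraries.

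The 4 libraries were polyadenylated RNA from MKOC and TJ cells, each line once untreated and once with 100 nM rapamycin for 18 h in serum-free medium. Both lines are labelled as Tsc2-null kidney epithelial cells, and TJ is described as derived from a secondary tumor grown in C57BL6 mice, so within each line the treated and untreated cells carry the same label. Whether the lines share a lesion is not given in the sources used here. The untreated libraries are labelled as receiving no treatment, while the shared protocol names a diluent. The other 2 of the 6 libraries of the series, from untreated embryonic fibroblasts, were not used here.

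Rapamycin binds FKBP12, and the complex inhibits mTOR complex 1 (mTORC1), the kinase complex that couples amino acids, growth factors and energy to protein, lipid and nucleotide synthesis. TSC2 forms, with TSC1 and TBC1D7, the complex that turns off RHEB, the small GTPase that activates mTORC1, so that cells without TSC2 keep mTORC1 active when growth factors are withdrawn. In kidney epithelium, loss of TSC genes is known for causing cysts and tumors. Among the transcription factors known to lie downstream of mTORC1 are ATF4, which drives amino acid synthesis and uptake, HIF1A, which drives glycolysis, SREBP factors, which drive lipid synthesis, and TFEB with TFE3, which drive lysosomal genes.

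The depth was 30079631 and 26992039 estimated counts in the untreated MKOC and TJ libraries and 22887020 and 26505929 in the treated ones. Mitochondrially encoded transcripts took 1.89% and 3.67% of the counts without rapamycin and 4.23% and 4.53% with it, and transcripts shorter than 300 bases took 4.09% and 5.69% of TPM without and 7.31% and 8.0% with it. Both shares moved with the treatment, and their part in the results was not tested. Tsc2 itself, the gene the labels call lost, was at 49.1 TPM in untreated MKOC cells and 44.0 TPM in untreated TJ cells, and at 19.5 and 19.1 TPM with rapamycin (log2 fold change -1.27 ± 0.10 SE, edgeR adjusted p = 2.3e-05). Its RNA was thus present in all 4 libraries, and since the deposited values do not show which exons the reads came from, they do not check the loss of the protein.

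The labelled cell type was checked against marker lists. Among kidney epithelial markers, Pax8, a transcription factor of the renal lineage, was at 141, 121, 147 and 164 TPM and Cdh16, a kidney cadherin, at 395, 537, 578 and 720 TPM in untreated MKOC, treated MKOC, untreated TJ and treated TJ cells, while Lhx1 was at 0 in all 4. The summed level of the 6 kidney epithelial markers ranged from 611 to 806 TPM without and from 732 to 976 TPM with rapamycin. The keratins Krt8 and Krt18 were at 232 TPM or more in every library, whereas Epcam did not exceed 0.0268 TPM. Of the markers of other cell types, Thy1 did not exceed 0.0355 TPM and Ptprc did not exceed 0.0423 TPM. The mesothelial marker Msln was at 79.9 and 69.5 TPM without and 150 and 97.6 TPM with rapamycin, the fibroblast marker Dcn at 25.5 and 6.73 TPM without and 50.3 and 10.5 TPM with it, and the macrophage marker Csf1r at 11.3 and 25 TPM without and 17.7 and 30.3 TPM with it. These are MKOC values first and TJ values second, an order kept throughout. Summed over the list, fibroblast markers (2 of 6 tested rose) were at 26.5 and 7.54 TPM without and 51.8 and 13 TPM with rapamycin, mesothelial markers (1 of 1 rose) at 80.1 and 69.6 TPM and then 151 and 97.7 TPM, and macrophage markers (1 of 2 rose) at 18.4 and 33.0 TPM and then 23.1 and 34.8 TPM. Endothelial markers (0 of 2 rose or fell) were at 3.71 and 1.49 TPM without and 3.24 and 1.28 TPM with it. The part of these markers in the results was not tested, and in bulk RNA fewer cells of a type cannot be told apart from less RNA per cell.

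Of the well-expressed genes, 1669 rose and 2032 fell with rapamycin at an adjusted p under 0.05 (edgeR's quasi-likelihood test with the line as a term and Benjamini-Hochberg adjustment over all 12952 genes tested). These were 18.5% and 22.5% of the 9018 well-expressed genes tested, and over all genes tested 17.5% rose and 17.4% fell, which is the background against which the counts below are read. The order of the counts among well-expressed genes depended on the scaling, with 1821 higher and 1799 lower under upper-quartile scaling and 1796 and 1740 under library totals, and without the line term 476 rose and 675 fell. The changes were mostly small, with a median log2 fold change of 0.58 among those that rose and -0.51 among those that fell, and only 16 and 19 of them were at least 4-fold. A change of at least 2-fold in each line, a value with no test, was seen in 174 genes that were higher (1.93%) and 144 that were lower (1.6%), against 530 genes past 2-fold in MKOC and 479 in TJ. With the limit set on the mean of the 4 libraries in place of 1 library, these counts were 121 higher and 128 lower, which turns their order. Of the 174, 82 reached 10 TPM only with rapamycin, and of the 144, 36 reached it only without, so the limit itself favoured such genes. Opposite 2-fold changes were seen in 7 genes. Among all 9018 genes, both treated libraries lay above both untreated ones in TPM in 27.9% and below them in 34.5%, the shares beside which any statement on overlap of named genes stands. Across the 9018 genes, which are not independent replicates and share the libraries' depths, the fold changes of the lines had a Pearson's r of 0.74 and a Spearman's rho of 0.79, and 79.7% had the same direction in both lines.

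**Figure D1:**
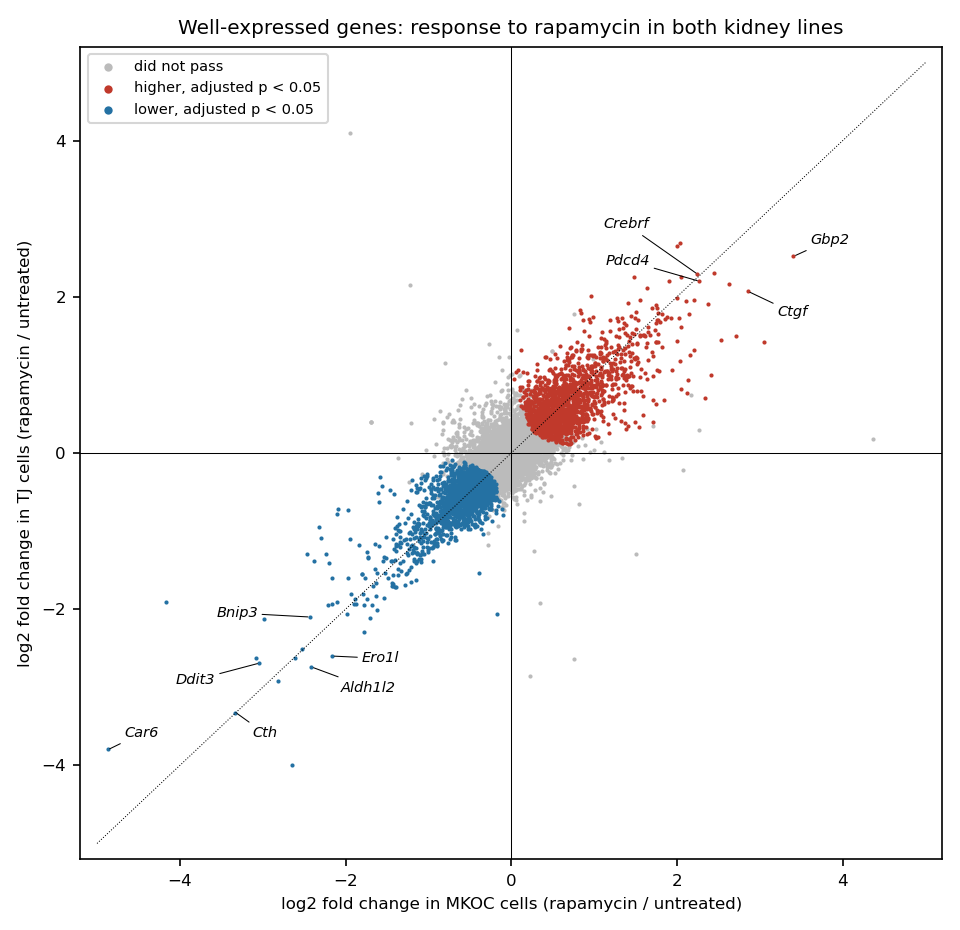
Each point is 1 of the 9018 well-expressed genes tested, with its log2 fold change (rapamycin over untreated) in MKOC cells on the x axis and in TJ cells on the y axis; red genes rose, blue genes fell and grey genes did not pass. The points lie along the dotted line of equal change, Car6 and Cth lie at the lower end and Gbp2 at the upper end, and 6 genes lie outside the axes.

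The 2 lines are the only replicates, so nothing speaks to repeat cultures of 1 line. Each p-value sets a gene's paired change against a spread taken mostly from other genes (1 residual degree of freedom against a prior of 9.06). A small p therefore does not mean that the lines changed by like amounts. Anxa8, for example, passed with log2 fold changes of 1.38 in MKOC and 0.38 in TJ. The lists of genes below describe pathways and were chosen with earlier results of these data known. For each list the number of tested members that rose or fell and the median log2 fold change are given, to be set beside a median of 0.02 over all genes tested and -0.04 over well-expressed genes. The list counts cover all tested members, also those under 10 TPM. The lists held 11.9% of the well-expressed genes tested, and, since they were chosen with results known, the 65 of 144 genes at least 2-fold lower in both lines and the 29 of 174 at least 2-fold higher that belong to a list are counts only.

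The genes of amino acid supply and the integrated stress response formed the list with the lowest median. Of 34 tested targets of ATF4, 31 fell and 1 rose, with a median log2 fold change of -1.38 (-1.22 in MKOC and -1.45 in TJ). Cth, the enzyme that makes cysteine from cystathionine, was at 56.0 and 45.1 TPM without and 5.77 and 4.46 TPM with rapamycin (log2 fold change -3.34 ± 0.13 SE, edgeR adjusted p = 8.1e-07). Trib3, a pseudokinase induced by ATF4, was at 218 and 180 TPM without and 35.9 and 28.9 TPM with it (-2.62 ± 0.10). Aldh1l2, a mitochondrial folate enzyme, was at 183 and 186 TPM without and 33.6 and 27.3 TPM with it (-2.58 ± 0.12). In each of these genes both treated libraries lay below both untreated ones, as they did for Psph, the last enzyme of serine synthesis, which went from 134 and 87.2 TPM to 23.5 and 15.1 TPM (-2.52 ± 0.11). Ddit3, which encodes the stress-induced transcription factor CHOP, was at 200 and 178 TPM without and 24.1 and 27.4 TPM with rapamycin (-2.87 ± 0.13, adjusted p = 1.8e-06). Atf4 itself, named after its values were seen, was at 575 and 568 TPM without and 309 and 250 TPM with it (-1.05 ± 0.11), and Asns, asparagine synthetase, likewise named afterwards, went from 315 and 324 TPM to 119 and 99.2 TPM (-1.56 ± 0.11). The member that rose was Gdf15, a secreted stress cytokine, at 85.0 and 96.6 TPM without and 100 and 153 TPM with rapamycin (0.45 ± 0.12, adjusted p = 0.018).

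Amino acid transporters and the enzymes that charge tRNA use the same pool of amino acids. Of 20 tested solute carriers for amino acids 8 fell and 3 rose (median -0.21), and those that fell include genes that are also listed as ATF4 targets. Slc7a5, the leucine exchanger of the plasma membrane, was at 208 and 191 TPM without and 86.1 and 89.5 TPM with rapamycin (log2 fold change -1.20 ± 0.10 SE). Slc1a5, a glutamine transporter, was at 223 and 196 TPM without and 106 and 98.6 TPM with it (-1.11 ± 0.10), and Slc1a4 went from 28.1 and 26.9 TPM to 11.6 and 8.34 TPM (-1.49 ± 0.13). Slc38a10 and Slc43a2 rose by 0.49 ± 0.11 and 0.58 ± 0.14. Of 22 cytosolic aminoacyl-tRNA synthetases and their scaffold proteins 19 fell and 1 rose, with a median of -0.95 (-0.86 in MKOC and -1.0 in TJ). Wars, the tryptophan enzyme, was at 162 and 167 TPM without and 53.1 and 57.6 TPM with rapamycin (-1.58 ± 0.10, edgeR adjusted p = 7.7e-06). Nars went from 508 and 523 TPM to 213 and 182 TPM (-1.40 ± 0.11), and Gars from 360 and 407 TPM to 160 and 157 TPM (-1.28 ± 0.10). The exception was Qars, the glutamine enzyme, at 94.1 and 96.8 TPM without and 143 and 127 TPM with it (0.45 ± 0.10, adjusted p = 0.0050).

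The promoters of several of these genes hold the letters TGATGCAA, the sequence that ATF4 binds together with its partner proteins. RefSeq promoter windows (GRCm38.p6, from 250 bases before to 50 bases after the annotated start) matched 6870 of the 9018 well-expressed genes by symbol, and the letters were sought on both strands. They were found in 0.67% of all 6870 genes, in 1.48% of the 1553 genes that fell and in 0.318% of the 1257 genes that rose. Among genes at least 2-fold lower in both lines they were found in 11 of 107 (10.3%), and among those at least 2-fold higher in 0 of 128. They were found in 7 of 28 ATF4 targets (25%) and in 4 of 14 synthetases (28.6%). List shares, here and below, cover all tested members with a window, also those under 10 TPM. The lists were chosen with earlier results known, and the sets overlap. Atf3, Chac1 and Aars, for example, belong to a list and to the 107 genes, so the shares are not separate evidence. Stretches from 7 genes of these lists, chosen for the letters from among members that fell, are shown so that the position of the letters can be seen. They are printed 5′ to 3′ on the gene's strand with the matched letters in capitals, and TTGCATCA is the same element read on the other strand.
Atf3: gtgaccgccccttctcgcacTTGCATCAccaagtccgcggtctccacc
Vldlr: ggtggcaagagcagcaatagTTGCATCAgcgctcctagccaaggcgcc
Chac1: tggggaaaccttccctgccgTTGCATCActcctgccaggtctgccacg
Nupr1: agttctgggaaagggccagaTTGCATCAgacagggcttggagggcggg
Slc7a11: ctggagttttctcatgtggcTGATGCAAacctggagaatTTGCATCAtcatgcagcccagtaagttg
Aars: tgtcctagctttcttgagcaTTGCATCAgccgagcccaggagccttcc
Tars: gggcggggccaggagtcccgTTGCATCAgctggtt

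These stretches lie upstream of the annotated starts, for Atf3 at chr1:191183416-191183463 on the minus strand, for Vldlr at chr19:27216800-27216847 on the plus strand, for Chac1 at chr2:119351029-119351076 on the plus strand and for Nupr1 at chr7:126625553-126625600 on the minus strand. Those of Slc7a11 (chr3:50443633-50443699), Aars (chr8:111033710-111033757) and Tars (chr15:11399659-11399693) lie on the minus, plus and minus strands. There are 7 bases between the matched letters and the start in Tars and 192 in Vldlr. Slc7a11, the cystine transporter, is the gene whose stretch holds the element on both strands. It was at 7.39 and 7.92 TPM without and 3.60 and 3.09 TPM with rapamycin (log2 fold change -1.35 ± 0.13 SE). These levels lie below the limit in every library, so Slc7a11 is not among the well-expressed genes counted above. Aars, the alanine enzyme, went from 266 and 265 TPM to 117 and 110 TPM (-1.24 ± 0.10) and Chac1, which degrades glutathione, from 97.0 and 89.3 TPM to 35.8 and 27.5 TPM (-1.57 ± 0.12). Vldlr, a lipoprotein receptor, went from 125 and 151 TPM to 36.5 and 47.3 TPM (-1.67 ± 0.11). A match of letters is a description of the window and not a measured binding site.

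Other motifs were counted in the same windows. The letters GTCACGTG, which resemble the element bound by TFEB, were found in 5.43% of the 6870 genes, in 5.41% of those that fell and in 5.17% of those that rose, and in 10 of 32 lysosomal genes (31.2%). The shorter letters CACGTG, which lie inside GTCACGTG, were found in 12.7% of all, 14.2% of those that fell and 10.9% of those that rose. E2F-type letters (TTTCGCGC or TTTGGCGC) were found in 2.07% of all and in 13 of 41 DNA replication genes (31.7%). The letters TCACCCCAC, a sterol-type element, were found in 0.713% of all and in 1 of 17 sterol synthesis genes.

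Of 22 tested genes of glycolysis, with its glucose and lactate carriers, 18 fell and 0 rose, with a median log2 fold change of -1.15 (-1.20 in MKOC and -1.02 in TJ), and their summed level went from 23011 and 23747 TPM to 9070 and 11064 TPM. Ldha, which makes lactate from pyruvate, was at 3486 and 3379 TPM without and 891 and 1119 TPM with rapamycin (-1.79 ± 0.13 SE, edgeR adjusted p = 1.7e-05). Pgk1, phosphoglycerate kinase, was at 1508 and 1613 TPM without and 519 and 619 TPM with it (-1.47 ± 0.11). Tpi1, triosephosphate isomerase, went from 1229 and 1470 TPM to 375 and 577 TPM (-1.54 ± 0.12), and Pfkp, a phosphofructokinase, from 173 and 164 TPM to 67.1 and 63.4 TPM (-1.37 ± 0.10). The untreated levels of each of these genes lay above both treated levels. Gapdh, often used as a reference gene and named here after its values were seen, was at 5959 and 7193 TPM without and 2692 and 3524 TPM with rapamycin (-1.09 ± 0.13).

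Of 20 tested genes of the hypoxia response 13 fell and 1 rose (median -0.87, -1.15 in MKOC and -0.69 in TJ). Bnip3, a mitophagy receptor, was at 214 and 213 TPM without and 40.6 and 52.8 TPM with rapamycin (log2 fold change -2.26 ± 0.12 SE, edgeR adjusted p = 3.9e-06). Ero1l, an oxidase of the endoplasmic reticulum, was at 312 and 437 TPM without and 70.2 and 72.5 TPM with it (-2.38 ± 0.13). Egln3, a prolyl hydroxylase that marks HIF proteins for decay, went from 60 and 89.4 TPM to 16.3 and 24.6 TPM (-1.88 ± 0.11). In all of these the untreated and treated values did not overlap, nor did they for Vegfa, the angiogenic growth factor, which went from 155 and 194 TPM to 59.2 and 65.7 TPM (-1.55 ± 0.10). Hif1a RNA, named after its values were seen, was at 225 and 327 TPM without and 87.7 and 114 TPM with rapamycin (-1.46 ± 0.11). The member that rose was Adm, the vasodilator peptide adrenomedullin, at 142 and 202 TPM without and 188 and 282 TPM with it (0.44 ± 0.10, adjusted p = 0.0060), and here the groups overlapped, since treated MKOC cells lay below untreated TJ cells.

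**Figure D2:**
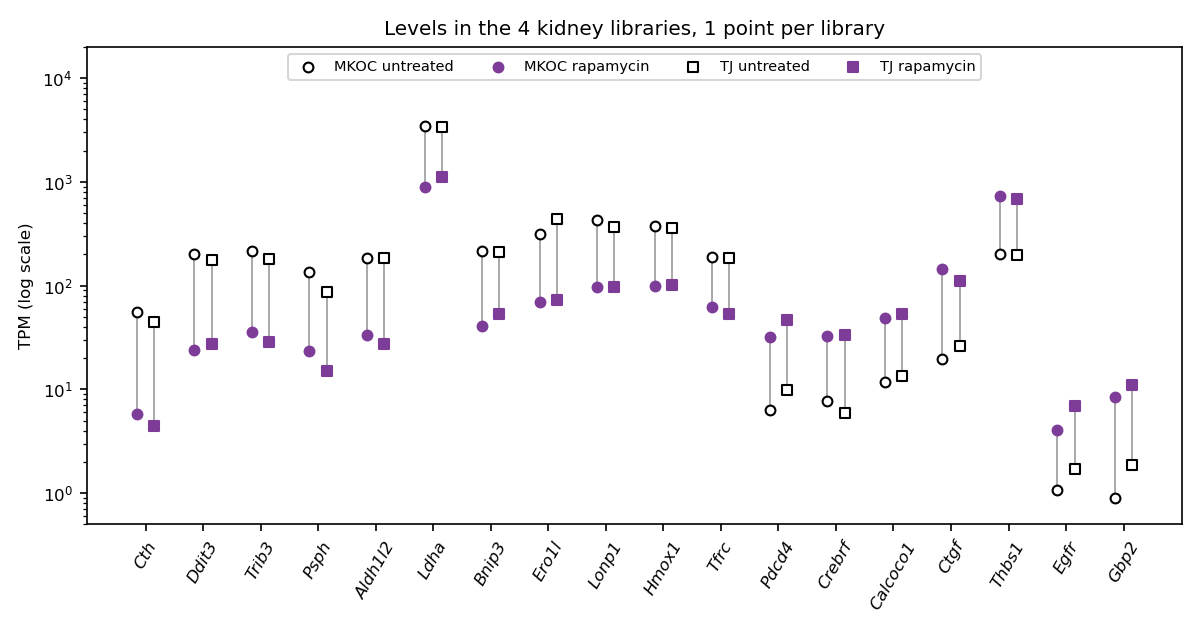
TPM on a log scale (y axis) of 18 genes (x axis) in each of the 4 kidney libraries, circles for MKOC and squares for TJ, open for untreated and filled for rapamycin, with a line joining the libraries of 1 line. From Cth to Tfrc the filled symbols lie below the open ones in both lines, and from Pdcd4 to Gbp2 above them; Ldha goes from 3486 and 3379 TPM to 891 and 1119 TPM.

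mTORC1 is known for promoting the synthesis of nucleotides and lipids. Of 25 genes of the pentose phosphate pathway and nucleotide synthesis 16 fell and 1 rose (median -0.45). Dhodh, the mitochondrial enzyme of pyrimidine synthesis, was at 33.0 and 25.2 TPM without and 12.4 and 15.9 TPM with rapamycin (log2 fold change -1.16 ± 0.14 SE). Gmps, which makes GMP, went from 25.6 and 25.6 TPM to 14.1 and 14.5 TPM (-0.85 ± 0.10), while Ctps2, which makes CTP, rose from 44.8 and 38.1 TPM to 67.0 and 64.1 TPM (0.60 ± 0.11). Of 14 fatty acid synthesis genes 4 fell and 0 rose (median -0.19). Scd1, a fatty acid desaturase, was at 605 and 567 TPM without and 441 and 397 TPM with it (-0.49 ± 0.11), and Me1, malic enzyme, went from 109 and 101 TPM to 72.1 and 71.1 TPM (-0.56 ± 0.10). The other pair that passed, Acss2 and Elovl6, was close to the threshold (edgeR adjusted p = 0.034 and 0.042). Fasn, fatty acid synthase, and Srebf1 did not pass, with log2 fold changes of 0.15 and -0.03.

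Of 25 sterol synthesis genes 5 rose and 0 fell, and the median was 0.40 in MKOC and 0.04 in TJ (0.21 in the paired fit). Mvd, an enzyme of the mevalonate pathway, was at 32.7 and 31.4 TPM without and 70.0 and 58.0 TPM with rapamycin (log2 fold change 0.99 ± 0.11 SE, edgeR adjusted p = 0.00019). Fdft1, squalene synthase, went from 84.4 and 86.9 TPM to 141 and 107 TPM (0.51 ± 0.12). Srebf2, the transcription factor of the pathway, did not pass, with a log2 fold change of 0.28.

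In the protein-making machinery, genes for assembling ribosomes were set beside those for the ribosomal proteins. Of 42 ribosome biogenesis genes 34 fell and 1 rose (median -0.60, -0.56 in MKOC and -0.68 in TJ). Nip7, an assembly factor of the large subunit, was at 49.8 and 48.0 TPM without and 27.5 and 26.4 TPM with rapamycin (log2 fold change -0.87 ± 0.10 SE). Nolc1, a nucleolar phosphoprotein, went from 142 and 120 TPM to 83.9 and 72.9 TPM (-0.74 ± 0.10). The processing factors Wdr43 and Wdr75 both changed by -0.78 on the log2 scale. The member that rose was Myc, a transcription factor that drives ribosome biogenesis, at 133 and 152 TPM without and 190 and 201 TPM with it (0.45 ± 0.10, edgeR adjusted p = 0.0059). Of 80 cytosolic ribosomal proteins 7 fell and 3 rose, with a median of -0.11 (-0.23 in MKOC and 0.02 in TJ), and their summed level was 158069 and 126551 TPM without and 135386 and 126843 TPM with rapamycin. Rpl10a and Rpl37a both rose by 0.55 ± 0.10 and Rps2 fell by 0.59 on the log2 scale. Ribosomal protein genes have many near-identical copies in the genome, so reads may have been divided among them and these values are uncertain.

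Of 49 translation factors 24 fell and 3 rose (median -0.30). Eif2s2, a subunit of the initiation factor eIF2, was at 461 and 465 TPM without and 250 and 212 TPM with rapamycin (log2 fold change -1.0 ± 0.10 SE), and Eif3c, a subunit of eIF3, went from 812 and 594 TPM to 379 and 274 TPM (-1.11 ± 0.11). Eif4b, a helper of the initiation helicase, and Eef2, the elongation factor of translocation, were higher in both lines. Eif4b was at 268 and 291 TPM without and 505 and 500 TPM with it (0.84 ± 0.11), and Eef2 at 1584 and 1322 TPM without and 2069 and 2359 TPM with it (0.60 ± 0.14). Of 38 proteasome genes 30 fell and 1 rose (median -0.45), with Psmd5, an assembly chaperone, going from 144 and 116 TPM to 81.5 and 71.1 TPM (-0.77 ± 0.10) and Psmd14, the deubiquitinase of the lid, from 152 and 127 TPM to 89.8 and 79.6 TPM (-0.75 ± 0.10). The proteasome gene that rose was Psme1, a subunit of the interferon-inducible activator, at 107 and 130 TPM without and 141 and 175 TPM with rapamycin (0.47 ± 0.12). Of 25 genes of the endoplasmic reticulum chaperones and unfolded protein response 10 fell and 1 rose (median -0.21), among them Hyou1 (-0.69 ± 0.10) and Hspa5, the chaperone BiP (-0.52 ± 0.10), while Syvn1, a ubiquitin ligase of the endoplasmic reticulum, rose by 0.47 ± 0.11.

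Mitochondrially encoded transcripts took a larger share of the reads with rapamycin, as given above, and the nuclear genes for mitochondria are given here. Of 79 nuclear-encoded genes of the respiratory chain and ATP synthase 51 fell and 2 rose (median -0.40, -0.52 in MKOC and -0.35 in TJ). Atp5g1, a subunit of the ATP synthase ring, was at 524 and 556 TPM without and 201 and 241 TPM with rapamycin (log2 fold change -1.27 ± 0.10 SE, edgeR adjusted p = 2.9e-05). Cyc1, cytochrome c1 of complex III, went from 494 and 458 TPM to 212 and 229 TPM (-1.12 ± 0.10). Cox7a2l, a factor that joins complexes III and IV, rose from 252 and 217 TPM to 407 and 364 TPM (0.71 ± 0.10). Of 76 mitochondrial ribosomal proteins 41 fell and 1 rose (median -0.39), with Mrps22 at 53.5 and 50 TPM without and 26.3 and 22.8 TPM with rapamycin (-1.08 ± 0.12). Lonp1, the protease of the mitochondrial matrix, went from 431 and 365 TPM to 96.8 and 96.4 TPM (-2.04 ± 0.11), and Hspa9, the mitochondrial Hsp70 that pulls proteins into the matrix, from 1546 and 1439 TPM to 621 and 507 TPM (-1.42 ± 0.12). Of 26 genes of fatty acid oxidation and PPAR targets 9 fell and 3 rose (median -0.19). Cpt1a, the gate of fatty acid entry into mitochondria, rose from 32.4 and 35.1 TPM to 81.2 and 79.2 TPM (1.24 ± 0.10), whereas Acot2, a mitochondrial thioesterase, fell from 21.6 and 24.3 TPM to 7.50 and 6.73 TPM (-1.70 ± 0.14).

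**Figure D3:**
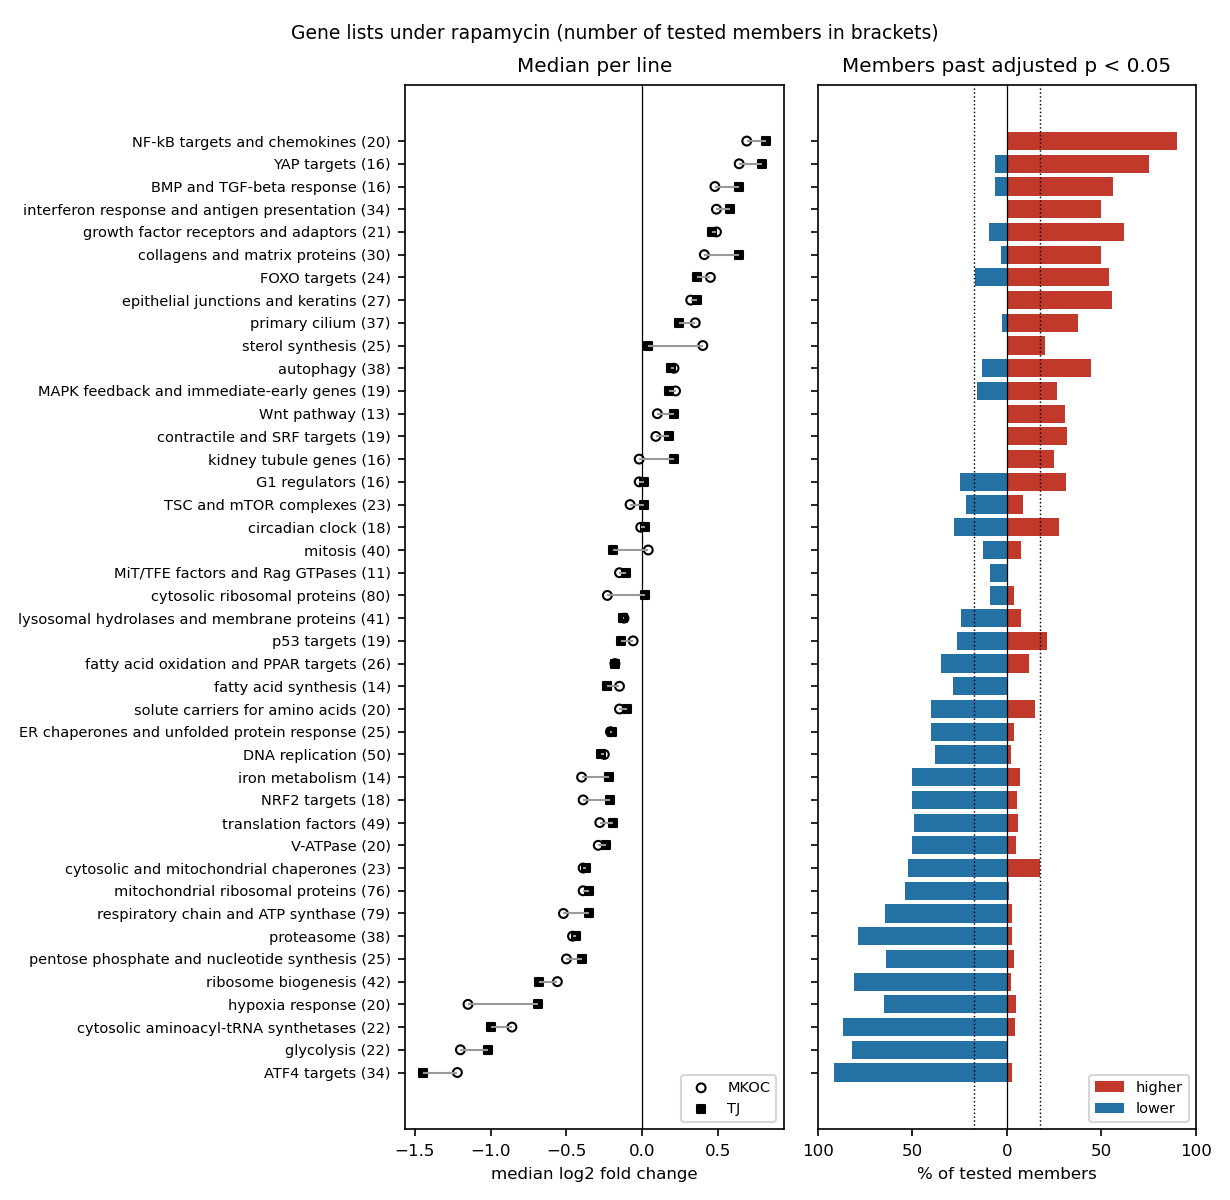
The 42 pathway lists, with the number of tested members in brackets. Left, the median log2 fold change in each line (x axis; circles MKOC, squares TJ), from -1.22 and -1.45 for ATF4 targets to 0.69 and 0.82 for NF-kB targets; right, the percentage of tested members that rose (red) or fell (blue), with dotted lines at the shares over all genes tested, 17.5% and 17.4%.

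Of 38 autophagy genes 17 rose and 5 fell (median 0.20), and the members that rose included genes of the kinase complex that starts autophagosomes. Calcoco1, a receptor for selective autophagy, was at 11.8 and 13.4 TPM without and 48.6 and 53.4 TPM with rapamycin (log2 fold change 1.99 ± 0.11 SE, edgeR adjusted p = 5.0e-06). Atg13, a subunit of the initiating kinase complex, was at 6.33 and 6.13 TPM without and 17.8 and 20 TPM with it (1.55 ± 0.12). Wipi1 went from 14.5 and 11.5 TPM to 28.8 and 27.7 TPM (1.13 ± 0.12), and Atg9b, a lipid scramblase of growing autophagosomes, from 13.6 and 18.1 TPM to 37.0 and 36.1 TPM (1.2 ± 0.13). Ulk1, the initiating kinase, and Map1lc3b, which coats autophagosomes, rose by 0.97 ± 0.12 and 0.78 ± 0.10 and are named after their values were seen. Sqstm1, the cargo receptor p62, fell from 768 and 833 TPM to 513 and 476 TPM (-0.67 ± 0.10), and Atg4d, a protease that trims the LC3 family, fell by 0.73 on the log2 scale.

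Of 41 lysosomal hydrolases and membrane proteins 10 fell and 3 rose (median -0.11). Ctsl, cathepsin L, was at 611 and 623 TPM without and 428 and 440 TPM with rapamycin (log2 fold change -0.51 ± 0.10 SE), and Ctsb, cathepsin B, at 148 and 169 TPM without and 100 and 123 TPM with it (-0.52 ± 0.10). Gla, alpha-galactosidase, went from 22.7 and 25.4 TPM to 15 and 16.6 TPM (-0.67 ± 0.12), while Arsa, arylsulfatase A, rose from 26.4 and 26.4 TPM to 36.7 and 39.5 TPM (0.55 ± 0.11). Of 20 subunits of the V-ATPase, the pump that acidifies lysosomes, 10 fell and 1 rose (median -0.31), and the catalytic subunit Atp6v1a went from 105 and 109 TPM to 68.3 and 75.1 TPM (-0.61 ± 0.10). Of the 11 tested genes for MiT/TFE factors and Rag GTPases with their partners 1 fell and 0 rose. It was Rragd, a Rag GTPase, at 5.23 and 2.33 TPM without and 3.58 and 1.70 TPM with rapamycin (-0.50 ± 0.16, edgeR adjusted p = 0.036), where untreated TJ cells lay below treated MKOC cells. Tfeb was at 12.6 and 12.2 TPM without and 10.2 and 18.0 TPM with it, moving in opposite directions in the lines, and Gpnmb was at 338 and 379 TPM without and 398 and 389 TPM with it.

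Within the mTOR pathway itself 2 of 23 tested genes rose and 5 fell (median -0.05), Tsc2 being the one with the lowest value. Deptor, an inhibitor of mTOR, was at 2.79 and 2.55 TPM without and 6.4 and 5.52 TPM with rapamycin (log2 fold change 1.15 ± 0.12 SE, edgeR adjusted p = 0.00014). Eif4ebp1, a translation repressor that mTORC1 phosphorylates, went from 408 and 371 TPM to 258 and 237 TPM (-0.66 ± 0.10), and Rheb from 160 and 182 TPM to 125 and 122 TPM (-0.49 ± 0.10). Mtor was at 13.1 and 17.5 TPM without and 16.2 and 15.1 TPM with it and did not pass. Tsc1 did not pass either (0.26 ± 0.11).

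Growth factor receptors and their adaptors carry signals from outside the cell to the mTOR and MAPK pathways. Of 21 tested genes 13 rose and 2 fell, with a median log2 fold change of 0.51 (0.49 in MKOC and 0.46 in TJ), and their summed level went from 1003 and 956 TPM to 1755 and 1688 TPM. Egfr was at 1.07 and 1.71 TPM without and 4.09 and 6.84 TPM with rapamycin (1.75 ± 0.17 SE, edgeR adjusted p = 6.9e-05), below the limit for well-expressed genes in every library. Ddr1, a collagen receptor kinase, was at 64.4 and 59.3 TPM without and 142 and 164 TPM with it (1.27 ± 0.11). Axl, the receptor of GAS6, went from 550 and 516 TPM to 1122 and 1024 TPM (1.06 ± 0.11), and Met, the receptor of hepatocyte growth factor, from 53.7 and 63.8 TPM to 105 and 113 TPM (0.91 ± 0.10). In each of these genes both treated libraries lay above both untreated ones. Of the members named after their values were seen, Igf1r went from 15.6 and 15 TPM to 26.7 and 24.2 TPM (0.73 ± 0.11) and Insr from 6.37 and 7.21 TPM to 10.3 and 11.1 TPM (0.65 ± 0.11). Ddr2, the other collagen receptor kinase, fell from 83.3 and 81.8 TPM to 56.9 and 53 TPM (-0.45 ± 0.10).

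Targets of the FOXO factors, which growth factor signalling through AKT holds out of the nucleus, showed 13 of 24 tested genes higher and 4 lower (median 0.39). Their summed level, however, went down, from 596 and 696 TPM to 559 and 629 TPM. Irs2, the insulin receptor substrate, was at 6.31 and 5.73 TPM without and 16.4 and 11.9 TPM with rapamycin (log2 fold change 1.21 ± 0.13 SE). Fbxo32, the ubiquitin ligase atrogin-1, was at 0.535 and 0.444 TPM without and 5.33 and 3.85 TPM with it (3.21 ± 0.18, edgeR adjusted p = 5.0e-06). Ccng2, a cyclin of resting cells, went from 30.9 and 30.4 TPM to 83.3 and 80.6 TPM (1.46 ± 0.11), and Bcl2l11, the pro-apoptotic protein BIM, from 11.7 and 14 TPM to 24.8 and 29.8 TPM (1.17 ± 0.11). Gadd45a and Sod2, which are targets of other stress pathways too, fell by 1.43 and 0.63 on the log2 scale. Of 19 MAPK feedback and immediate-early genes 5 rose and 3 fell (median 0.18). Junb went from 13.3 and 16.4 TPM to 26.5 and 55.2 TPM (1.37 ± 0.17), Spry1, an inhibitor of receptor kinase signalling, from 11.5 and 11 TPM to 22.2 and 31.2 TPM (1.22 ± 0.15), and Egr1 from 10 and 22.8 TPM to 50.9 and 37.3 TPM (1.51 ± 0.29), with log2 fold changes of 2.34 in MKOC and 0.70 in TJ. Fosl1 went from 58.1 and 54.7 TPM to 29.1 and 22.9 TPM (-1.13 ± 0.12).

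Of 50 DNA replication genes 19 fell and 1 rose (median -0.25), whereas of 40 mitosis genes 5 fell and 3 rose (median 0.04 in MKOC and -0.19 in TJ). Dut, the dUTPase, was at 364 and 293 TPM without and 201 and 158 TPM with rapamycin (log2 fold change -0.87 ± 0.10 SE), and Rrm2, a subunit of ribonucleotide reductase, at 420 and 491 TPM without and 294 and 316 TPM with it (-0.59 ± 0.10). Aurka, a mitotic kinase, went from 150 and 151 TPM to 106 and 102 TPM (-0.54 ± 0.10), while Pttg1, securin, rose from 34.7 and 44.7 TPM to 53.1 and 66.8 TPM (0.55 ± 0.13). Among 16 regulators of G1, 5 rose and 4 fell. Cdkn2b, the inhibitor p15 of the cyclin D kinases, rose from 20.4 and 22.9 TPM to 64.6 and 70.7 TPM (1.64 ± 0.11, edgeR adjusted p = 1.3e-05), and Cdkn1a, the inhibitor p21, fell from 77.3 and 77.0 TPM to 32.4 and 32.1 TPM (-1.27 ± 0.11). The D cyclins went different ways, with Ccnd1 at 732 and 466 TPM without and 1047 and 892 TPM with rapamycin (0.71 ± 0.13) and Ccnd2 at 22.2 and 28.8 TPM without and 8.72 and 14.5 TPM with it (-1.18 ± 0.12). Ccnd3, named after its values were seen, fell from 59.5 and 60.3 TPM to 41.3 and 51.7 TPM (-0.44 ± 0.13), with log2 fold changes of -0.70 in MKOC and -0.17 in TJ. Of 19 p53 targets 5 fell and 4 rose (median -0.17). Cdkn1a is among those that fell, as are Aen, an apoptotic exonuclease, from 56.4 and 55.3 TPM to 39.2 and 37.6 TPM (-0.64 ± 0.11), Ccng1, cyclin G1 (-0.46 ± 0.11), and Eda2r, a death domain receptor, from 0.713 and 1.12 TPM to 0.285 and 0.278 TPM (-1.93 ± 0.39). Among those that rose, Fas, a death receptor, went from 2.15 and 6.50 TPM to 9.25 and 18.3 TPM (1.69 ± 0.22).

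Of 18 targets of NRF2, the factor of the oxidative stress response, 9 fell and 1 rose (median -0.27). Hmox1, heme oxygenase, was at 378 and 356 TPM without and 100 and 102 TPM with rapamycin (log2 fold change -1.87 ± 0.10 SE, edgeR adjusted p = 4.6e-06). Gclc, which starts glutathione synthesis, went from 36.7 and 32.9 TPM to 21.9 and 16.9 TPM (-0.86 ± 0.11), and Gsta4 from 25.9 and 28.3 TPM to 9.51 and 10.8 TPM (-1.42 ± 0.17). The gene that rose was Nfe2l2, which encodes NRF2 itself, at 50.6 and 62.7 TPM without and 76.2 and 71.8 TPM with it (0.39 ± 0.12, adjusted p = 0.028).

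The list with the highest median was that of NF-kB targets and chemokines, of which 18 of 20 tested genes rose and 0 fell (median 0.81, 0.69 in MKOC and 0.82 in TJ). Their summed level went from 696 and 1501 TPM to 1393 and 3253 TPM. Ccl2, which attracts monocytes, was at 123 and 264 TPM without and 421 and 764 TPM with rapamycin (log2 fold change 1.65 ± 0.11 SE, edgeR adjusted p = 8.1e-06). Ccl20, which attracts cells that carry CCR6, was at 15.1 and 72.9 TPM without and 49.9 and 179 TPM with it (1.47 ± 0.13). Untreated TJ cells lay above treated MKOC cells for Ccl20, so the groups overlapped although both lines rose. Tnfaip3, the NF-kB inhibitor A20, went from 7.67 and 12.6 TPM to 24.3 and 28.6 TPM (1.42 ± 0.13), and Cxcl16 from 43.5 and 78.4 TPM to 103 and 142 TPM (1.12 ± 0.11).

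Of 34 genes of the interferon response and antigen presentation 17 rose and 0 fell (median 0.55). Gbp2, an interferon-induced GTPase with close paralogs, was at 0.892 and 1.87 TPM without and 8.37 and 10.9 TPM with rapamycin (log2 fold change 2.93 ± 0.24 SE). Parp14, an ADP-ribosyltransferase, went from 2.19 and 5.29 TPM to 7.57 and 15.9 TPM (1.66 ± 0.12), and Irf1, a transcription factor of the interferon response, from 25.6 and 33.5 TPM to 50.5 and 77.6 TPM (1.08 ± 0.12). Oasl2 went from 9.50 and 18.6 TPM to 25.7 and 37.9 TPM (1.18 ± 0.14). B2m and H2-K1, genes of the class I complex, did not pass, with log2 fold changes of 0.02 and -0.03.

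YAP is a transcription coactivator that responds to cell shape and matrix. Of 16 tested YAP targets 12 rose and 1 fell (median 0.71, 0.64 in MKOC and 0.79 in TJ). Ctgf, a secreted matricellular protein, was at 19.8 and 26.3 TPM without and 145 and 112 TPM with rapamycin (log2 fold change 2.47 ± 0.17 SE, edgeR adjusted p = 1.2e-05). Edn1, the vasoconstrictor endothelin-1, was at 13 and 32.2 TPM without and 43.9 and 120 TPM with it (1.82 ± 0.11), and Ankrd1 went from 179 and 243 TPM to 586 and 581 TPM (1.48 ± 0.12). The target that fell was Nt5e, the ectonucleotidase CD73, at 15.4 and 9.22 TPM without and 2.98 and 3.53 TPM with rapamycin (-1.88 ± 0.21). Of 30 collagens and matrix proteins 15 rose and 1 fell (median 0.50). Thbs1, thrombospondin-1, went from 204 and 198 TPM to 740 and 688 TPM (1.80 ± 0.11, adjusted p = 7.9e-06), and the basement membrane laminins Lama5 and Lamb2 rose by 0.92 ± 0.11 and 1.09 ± 0.12 while Lamc1 fell by 0.46 on the log2 scale. Of 16 genes of the BMP and TGF-beta response 9 rose and 1 fell (median 0.58). Bmp4 went from 4.15 and 4.35 TPM to 14 and 14.6 TPM (1.74 ± 0.17), Ltbp1, which stores latent TGF-beta in the matrix, from 9.46 and 6.95 TPM to 25.2 and 16.8 TPM (1.60 ± 0.12), and Bmp7, known for kidney development, from 21.7 and 16.9 TPM to 11.6 and 13.9 TPM (-0.60 ± 0.15).

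Of 19 contractile genes and SRF targets 6 rose and 0 fell (median 0.13). Tpm1, a tropomyosin, was at 244 and 278 TPM without and 459 and 520 TPM with rapamycin (log2 fold change 0.91 ± 0.10 SE), and Myh9, a non-muscle myosin, went from 148 and 141 TPM to 252 and 225 TPM (0.78 ± 0.11). Epithelial junction and keratin genes rose in 15 of 27 cases and fell in 0 (median 0.33). Krt7, a simple-epithelium keratin, was at 195 and 166 TPM without and 457 and 380 TPM with it (1.16 ± 0.10, edgeR adjusted p = 3.3e-05). Cldn1, a tight junction protein, went from 42.9 and 49.9 TPM to 96.7 and 114 TPM (1.17 ± 0.10), and Krt8 from 539 and 560 TPM to 918 and 990 TPM (0.79 ± 0.10). Of 16 kidney tubule genes 4 rose and 0 fell. They were Cdh16 (0.37 ± 0.11) and the 3 polycystic kidney disease genes of the list, Pkhd1 from 5.33 and 7 TPM to 9.72 and 14 TPM (0.88 ± 0.11), Pkd1 from 6.11 and 6.32 TPM to 9.59 and 9.73 TPM (0.63 ± 0.10) and Pkd2 from 31.1 and 24.8 TPM to 50 and 34.0 TPM (0.56 ± 0.10). Beside these counts, the mesothelial marker Msln (0.70 ± 0.12) and the fibroblast markers Dcn (0.82 ± 0.13) and Col3a1 (1.53 ± 0.52) rose too, Col3a1 from 0.473 and 0.139 TPM to 0.973 and 1.07 TPM. Their part in these results was not tested.

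**Figure D4:**
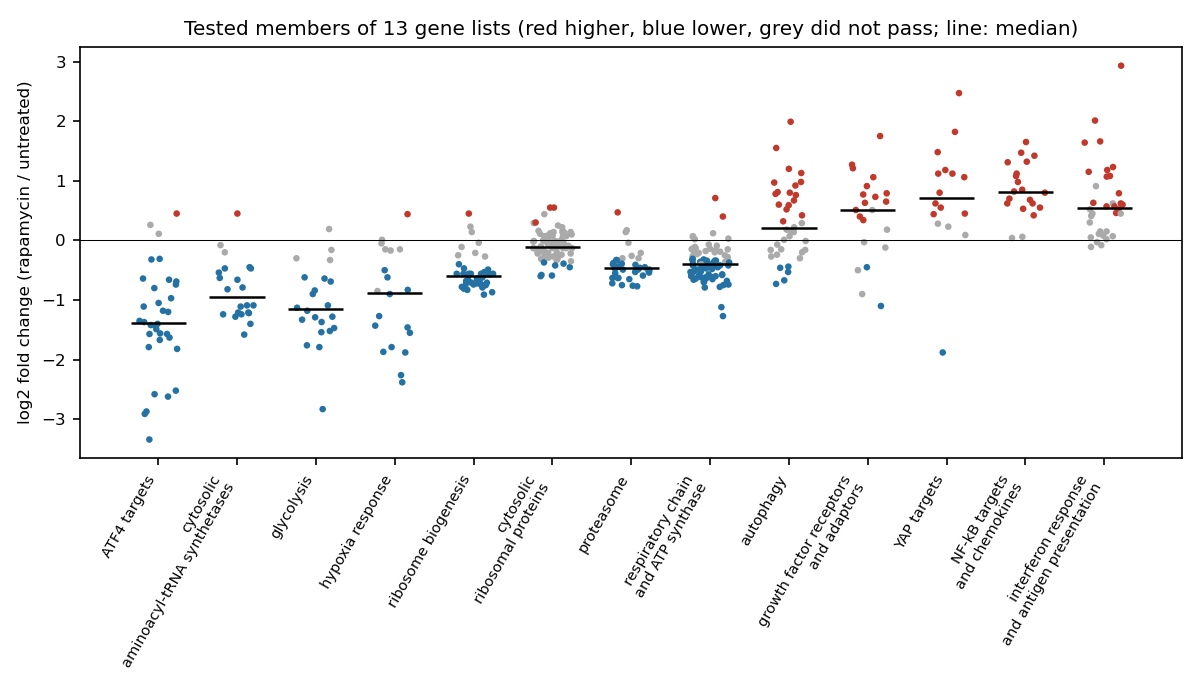
Log2 fold change (y axis, rapamycin over untreated, paired fit) of every tested member of 13 lists (x axis); red members rose, blue members fell, grey members did not pass and the bar is the median. Members of the ATF4, glycolysis and synthetase lists lie mostly below 0, those of the NF-kB list above 0, and most ribosomal proteins lie near 0.

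Some of the largest paired changes lay outside these lists. The ranking below left out predicted genes (Gm and Rik symbols), clone-type symbols, pseudogenes, date-like symbols and mitochondrially encoded transcripts. Larger changes may lie among those. Ranked by the smaller of the changes in the lines, the 15 genes that rose most among the rest began with Gbp2, Wbscr27, Crebrf, Pdcd4 and Gbp9. Of these 15, 13 reached the limit of 10 TPM only with rapamycin, so the limit favoured them, as it did the 7 of the 15 that fell most and reached it only without. Pdcd4, a translation repressor that binds the helicase eIF4A, was at 6.38 and 9.82 TPM without and 31.9 and 46.2 TPM with rapamycin (log2 fold change 2.23 ± 0.12 SE, edgeR adjusted p = 4.9e-06). Crebrf, a regulator of the stress factor CREB3, was at 7.78 and 5.93 TPM without and 32.9 and 33.6 TPM with it (2.27 ± 0.11). Wbscr27 went from 4.25 and 5.82 TPM to 31.9 and 34.0 TPM (2.38 ± 0.15), and Klhl24, a ubiquitin ligase adaptor, from 3.15 and 4.26 TPM to 14.6 and 16.7 TPM (2.08 ± 0.12). Smpd3, a neutral sphingomyelinase, Tns4, a tensin of focal adhesions, and Jade2, a chromatin protein, rose by 2.35 ± 0.18, 2.14 ± 0.15 and 1.97 ± 0.12. The remaining genes of the 15 were Ctgf, Zscan2 (2.16 ± 0.22), Mturn (2.35 ± 0.17), Calcoco1, Siglecg (2.06 ± 0.24) and Pbp2 (2.07 ± 0.30), of which Pbp2 and the Gbp genes have close paralogs and are uncertain.

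Among the 15 that fell most, Car6, a secreted carbonic anhydrase, was at 34.5 and 22.1 TPM without and 1.10 and 1.38 TPM with rapamycin (log2 fold change -4.36 ± 0.25 SE, edgeR adjusted p = 5.0e-06). Cdsn, corneodesmosin, an adhesive protein of keratinized epithelium, was at 178 and 177 TPM without and 25.5 and 23.6 TPM with it (-2.87 ± 0.10, adjusted p = 8.1e-07). Cox6a2, a muscle-type subunit of cytochrome c oxidase, went from 12.4 and 12.7 TPM to 1.35 and 1.98 TPM (-2.91 ± 0.35), and Angptl6, a secreted angiopoietin-like protein, from 11.5 and 9.49 TPM to 1.42 and 2.16 TPM (-2.55 ± 0.27). P2rx3, an ATP-gated channel, went from 21.3 and 13.6 TPM to 4.51 and 4.13 TPM (-2.09 ± 0.23), and Fam171b from 19.0 and 11.3 TPM to 5.30 and 2.72 TPM (-2.02 ± 0.12). The ranking left little room for overlap between treated and untreated libraries, and Ostn, a secreted peptide, overlapped, at 0.601 TPM in untreated MKOC and 16.8 TPM in untreated TJ cells and at 0.0516 and 1.02 TPM with rapamycin (-3.99 ± 0.37). Ostn met the limit of 10 TPM only in untreated TJ cells. Its level in treated MKOC cells lies under the 0.106 TPM that 3 counts in a 2 kb transcript give there, so its change in MKOC is uncertain.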

How the data were processed

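RNA-seq of 6 mouse cell libraries (TruSeq Stranded mRNA, paired-end reads trimmed with Trimmomatic) was quantified by the authors with kallisto, and the deposited table holds estimated counts and TPM for 88198 mouse Ensembl transcripts, with TPM scaled by the authors per transcript length and library. The study's methods name a human transcriptome, while the identifiers are mouse, and the version of kallisto is not given in the sources used here. A second deposited table holds the authors' own fold changes between the fibroblast libraries, of which only the gene symbols were taken. Here TPM and estimated counts were summed per symbol, leaving out 1006 transcripts without a symbol (0.38% to 0.397% of counts per library), and 153 transcripts carried 25 symbols that a spreadsheet had turned into dates.

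Summed counts were rounded and tested with edgeR 4.0.16 (filterByExpr, TMM, quasi-likelihood test, terms for line and treatment, R 4.3.3), with Benjamini-Hochberg adjustment over 12952 genes and a threshold of 0.05. The fit left 1 residual degree of freedom per gene, and the spread was estimated with a prior of 9.06 degrees of freedom and a biological coefficient of variation of 0.0947. The standard error of a log2 fold change is its size divided by the square root of F. Changes within a line are log2 ratios of TMM-scaled CPM with 1 count added and have no test. Levels are TPM of single libraries, and 3 counts in a transcript of about 2 kb correspond to 0.082 to 0.106 TPM, counting error only. The libraries of 1 line form the pair by their labels, and deviations from the group means correlated at 0.54 over 12952 genes. The fit was run on simulated data with known changes before use. Those changes were few, balanced between rises and falls and alike in both lines, unlike the data here. That run therefore does not show how the fit performs on these libraries.

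The rule for naming took Tsc2 and the 15 rises and 15 falls with the largest smaller-of-both-lines change. Predicted genes, clone-type symbols, pseudogenes, date-like symbols and mitochondrially encoded transcripts were left out of that ranking. From each list it took the 4 members with the smallest p in the majority direction and 2 in the other, if past the threshold. Not all genes that the rule took are printed above. Others, among them genes given as not passing and those of the promoter stretches, were named after their values were seen. The members and lists were chosen with earlier results of these data known. Alternatives were other scalings, no filter, DESeq2 1.42.0, limma 3.58.1 on log2(TPM + 1) or log2(TPM + 0.1), no line term, stricter thresholds, other limits of expression, a correction for transcript length and each line alone.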

Additional observations from a re-analysis of the deposited data

Results flagged for a closer look

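In 9 lists the median log2 fold change had opposite signs in the lines. The difference, TJ minus MKOC, was 0.25 for cytosolic ribosomal proteins (-0.23 in MKOC and 0.02 in TJ), -0.23 for mitosis, 0.03 for G1 regulators, 0.09 for TSC and mTOR complexes, 0.23 for kidney tubule genes and 0.03 for the circadian clock. It was 0.5 for kidney epithelial markers (-0.19 and 0.31), -0.38 for the 2 tested endothelial markers and -0.16 for the 2 tested macrophage markers. With 1 library per line and treatment the difference between the lines could not be tested.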

How the results depend on the processing

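The counts of genes depended most on the threshold and on the term for the line. Without the line term (no replicate block) 559 genes rose and 716 fell over all genes tested, and 476 and 675 of the well-expressed genes, and 85 of the 235 named genes no longer passed. At an adjusted p under 0.01 the counts were 1302 and 1307 over all genes and 1037 and 1204 among well-expressed genes, and with a change of at least 1.5-fold they were 1333 and 979, and 829 and 784. DESeq2 with the line as a term called 1466 genes higher over all genes tested and left 16 named genes below the threshold. With the limit for well-expressed genes at 30 TPM 5620 genes were tested, of which 939 rose (16.7%) and 1602 fell (28.5%). Under RLE, upper-quartile or library-total scaling, no filter and limma the counts stayed within 1.5 times, while limma on log2(TPM + 1) left 15 named genes below the threshold, and none of the 235 genes named by the rule changed direction. The values of 8 of them moved by more than the spread between the lines without replicate 1 and those of 5 without replicate 2. The paired value lies near the mean of the lines, so a line alone can hardly move by more than that spread. These counts therefore say little on stability. The 15 rises and 15 falls were also chosen for the same direction in both lines. The order of the counts did turn, since 1821 well-expressed genes rose and 1799 fell under upper-quartile scaling and 1796 and 1740 under library totals (2419 and 1934 over all genes). List medians moved by more than the spread between the lines in 15 lists under library totals and 15 under upper-quartile scaling (by 0.03 to 0.04), in 12 under limma (by -0.29 to 0.18 over all lists) in 10 with the length trend removed (by -0.1 to 0.06), in 14 without replicate 1 (by -0.22 to 0.32) and in 12 without replicate 2 (by -0.4 to 0.21), beside those that changed sign. Without replicate 1 (TJ alone) and without replicate 2 (MKOC alone), medians of opposite sign were 0.02 and -0.23 for ribosomal proteins, -0.19 and 0.04 for mitosis, 0.01 and -0.08 for TSC and mTOR complexes, 0.21 and -0.02 for kidney tubule genes, 0.02 and -0.01 for the circadian clock, 0.01 and -0.02 for G1 regulators, 0.31 and -0.19 for kidney epithelial markers, -0.21 and 0.17 for endothelial markers and -0.13 and 0.03 for macrophage markers. The median of G1 regulators was also -0.02 with the length trend removed, and that of kidney epithelial markers 0.03 under library totals, 0.03 under upper-quartile scaling and 0.01 under limma. The cause was not tested.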

Other observations

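Iron genes, clock genes, cilium genes and a few more were measured beside the pathways above. Of 14 genes of iron metabolism 7 fell and 1 rose (median log2 fold change -0.27). Tfrc, the transferrin receptor, was at 190 and 183 TPM in untreated MKOC and TJ cells and at 61.9 and 52.8 TPM with rapamycin (-1.73 ± 0.10 SE, edgeR adjusted p = 6.1e-06). Ftl1 and Fth1, the ferritin chains that store iron, went from 10770 and 8789 TPM to 5239 and 5499 TPM (-0.87 ± 0.14) and from 15961 and 14291 TPM to 10672 and 9942 TPM (-0.56 ± 0.13). Ferritin genes have near-identical copies, and reads may have been divided among them. The zinc and iron carrier Slc39a14 rose from 38.6 and 38.2 TPM to 68.0 and 74.5 TPM (0.72 ± 0.10).

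Of 18 clock genes 5 rose and 5 fell. Ciart, a repressor of the clock, went from 49.1 and 38.6 TPM to 15.7 and 10.5 TPM (log2 fold change -1.91 ± 0.14 SE) and Cry1 from 20.4 and 16.0 TPM to 7.81 and 7.82 TPM (-1.22 ± 0.14), while Per3 rose from 2.97 and 2.65 TPM to 7.03 and 6.35 TPM (1.40 ± 0.15). Each library is a single time point, so a shift of phase and a change of level cannot be told apart.

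Of 37 genes of the primary cilium 14 rose and 1 fell (median log2 fold change 0.23), among them Ift140, an intraflagellar transport subunit, from 10.7 and 10.7 TPM to 17.8 and 17.3 TPM (0.80 ± 0.11 SE), and Ift46 from 61.3 and 59.3 TPM to 109 and 101 TPM (0.65 ± 0.11). Of 13 Wnt pathway genes 4 rose and 0 fell, with Tcf7l2, a transcription factor of the pathway, going from 5.11 and 5.85 TPM to 10.5 and 12.1 TPM (0.99 ± 0.15). Of 23 cytosolic and mitochondrial chaperones 12 fell and 4 rose (median -0.38). Hspd1, the mitochondrial chaperonin, fell from 869 and 857 TPM to 463 and 424 TPM (-0.98 ± 0.11), while the heat-induced Hspa1b, a near-identical copy of Hspa1a, was at 2.26 and 2.63 TPM without and 5.88 and 6.21 TPM with rapamycin (1.30 ± 0.19).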
